A study of Nothobranchius furzeri with 2 samples.

Results

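Muscle buffers its ATP with phosphocreatine and with the adenylate pool, and 8 genes of these systems were examined here in the African turquoise killifish Nothobranchius furzeri. They are the creatine kinases CKM, CKB, CKMT1 and CKMT2, the creatine synthesis enzymes GATM and GAMT, the adenylate kinase AK1 and the AMP deaminase AMPD1. Every annotated line whose gene name was 1 of these 8 symbols, with or without a paralog letter or a copy number in parentheses, was taken as a member. This gave 8 lines among the 18529 annotated lines, 1 for each symbol. The muscle creatine kinase is listed as CKMB, the sarcomeric mitochondrial creatine kinase as CKMT2 (1 OF 2) and the brain creatine kinase as CKB (1 OF 3). No annotated line carried the name of another copy that these names imply, so such copies could not be examined here. In old muscle AMPD1 was higher and CKMB, AK1 and GAMT were lower than in young muscle. Removal of the germ cells moved none of these genes in muscle past the threshold of the reported fits. In the livers of females GAMT was higher without germ cells at both ages. In old livers that call was lost in 6 of 20 alternative fits.

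Creatine kinases carry phosphate between phosphocreatine and ADP, so that ATP is remade at once where it is used. The mitochondrial forms charge creatine at the site of ATP production, and the cytosolic muscle form spends phosphocreatine at the contractile apparatus. Adenylate kinase converts a pair of ADP molecules into ATP and AMP, and AMP deaminase removes the AMP by turning it into IMP, the entry step of the purine nucleotide cycle in working muscle. Creatine itself is made by GATM, which joins glycine with the amidino group of arginine, and GAMT, which methylates the product. It can enter muscle from the blood through the transporter SLC6A8. Where the creatine of these fish was made was not tested.

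The fish were of the GRZ strain, and all had been injected with a morpholino antisense oligo (MO), either a control MO or an MO against dnd, whose knockdown leaves the fish without germ cells. Skeletal muscle and liver were taken from females and males at 1.5 months (young) and at 3 months (old), with 5 libraries in each group. The 8 muscle groups (40 libraries) were sequenced as 1 pool, and the 4 groups of female livers (20 libraries) belonged to another pool. BRB-seq, a barcoded 3′ RNA-seq method, was used, in which each transcript molecule is counted once by a unique molecular identifier (UMI). Levels are given as CPM, the counts of a gene relative to the total of its library, on library sizes scaled by the trimmed mean of M values (TMM). Per the methods each library of a group was made from a different fish, so the p-values measure the spread between fish as these libraries show it. In old male muscle libraries with the same number deviated together, as given below, so the spread there also holds a part shared by number.

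Total counts ran from 80573 to 221897 in muscle and from 28062 to 256671 in female liver, where control livers (28062 to 180764) were shallower than germ cell-removed livers (163968 to 256671). The labelled tissues fit their markers, since fast fibre markers summed to between 80735 and 186076 CPM in muscle and to at most 112 CPM in liver. Several features moved with age in muscle beside the members. The 17 genes over 1% of any muscle library took 52.6 to 61.2% of the counts in young and 39.7 to 53.9% in old libraries. Of the 13 fast fibre markers 7 were lower and 1, ATP2A1L, was higher in old muscle over all groups, with summed levels of 124693 to 186076 CPM in young and 80735 to 122240 CPM in old libraries. All 6 connective tissue markers tested were lower (3338 to 11108 CPM in young, 397 to 2567 CPM in old). All 8 hepatocyte markers tested were higher (0 to 276 CPM in young, 31.6 to 1354 CPM in old, against 14469 to 103529 CPM in liver, with 1 of the 2 AMBP lines at 0 in every muscle library), as were 2 of 6 exocrine pancreas markers (9.82 to 455 and 19.3 to 589 CPM). Of the 5 epidermis markers tested 1 was higher over all groups and in 3 of the 4 comparisons (sums of 393 to 1645 CPM in young, median 874, and 707 to 4229 CPM in old, median 1508), and KRT5 went from a mean of 724 to 1499 CPM. Of the leukocyte markers 1 of 3 was higher (0 to 42.1 and 4.83 to 69.4 CPM), and of the red cell markers 1 of 2 (0 to 55.4 and 4.65 to 71.5 CPM). The 1 heart marker tested was lower (sums of 13.8 to 189 and 7.81 to 167 CPM), and of the 10 slow fibre markers tested 1 was lower (708 to 3178 and 754 to 4079 CPM). Young libraries detected 4234 to 7398 genes (median 5893) and old ones 5872 to 7828 (median 7131). The part of these features in the members' changes was not tested, and fewer cells of a type cannot be told apart from less RNA per cell.

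Of the 8 members, 5 were well counted in muscle. CKMB (Nfu_g_1_016401, sgr06, 850390 to 852346, plus strand, positions on the GRZ assembly the authors mapped to) had 521 to 1524 counts in each of the 40 libraries. CKMT2 (1 OF 2) (Nfu_g_1_006411, sgr02, 36713574 to 36730362, plus strand) had 210 to 965 counts, and AK1 (Nfu_g_1_006317, sgr02, 57766462 to 57770421, minus strand) had 203 to 551. AMPD1 (Nfu_g_1_013350, scaffold00225, 14788 to 30142, plus strand) had 118 to 1656 counts. GAMT (Nfu_g_1_002434, sgr17, 15001441 to 15005221, plus strand) had 43 to 130. All 8 lines are annotated as protein coding, and the positions span the whole gene. Together the members took 1.21 to 1.65% of the counts of young and 1.3 to 1.72% of those of old muscle, so their summed share overlapped between the ages while the genes within it moved apart.

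The 3 other members were rare in muscle. CKB (1 OF 3) (Nfu_g_1_018533, sgr16, 3077450 to 3080871, plus strand), the form best known from brain, had 0 to 11 counts per library and 127 in all, and its line overlaps a neighbouring line at the end. GATM (Nfu_g_1_003310, sgr07, 39739578 to 39745250, plus strand) had 26 counts in all 40 libraries. CKMT1 (Nfu_g_1_018125, sgr13, 8566845 to 8587542, plus strand), the mitochondrial creatine kinase of tissues other than striated muscle, had 7 counts in 6 libraries and was too rare for a test. A library with 0 counts allows a level of up to 3 counts, which is 13.5 to 37.2 CPM on the plain total of a single muscle library. If all 20 libraries of an age were at 0, the same limit would be 0.890 CPM in young and 0.832 CPM in old muscle. None of these members was at 0 in all libraries of an age. These floors and the intervals below cover counting error only.

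**Figure D1:**
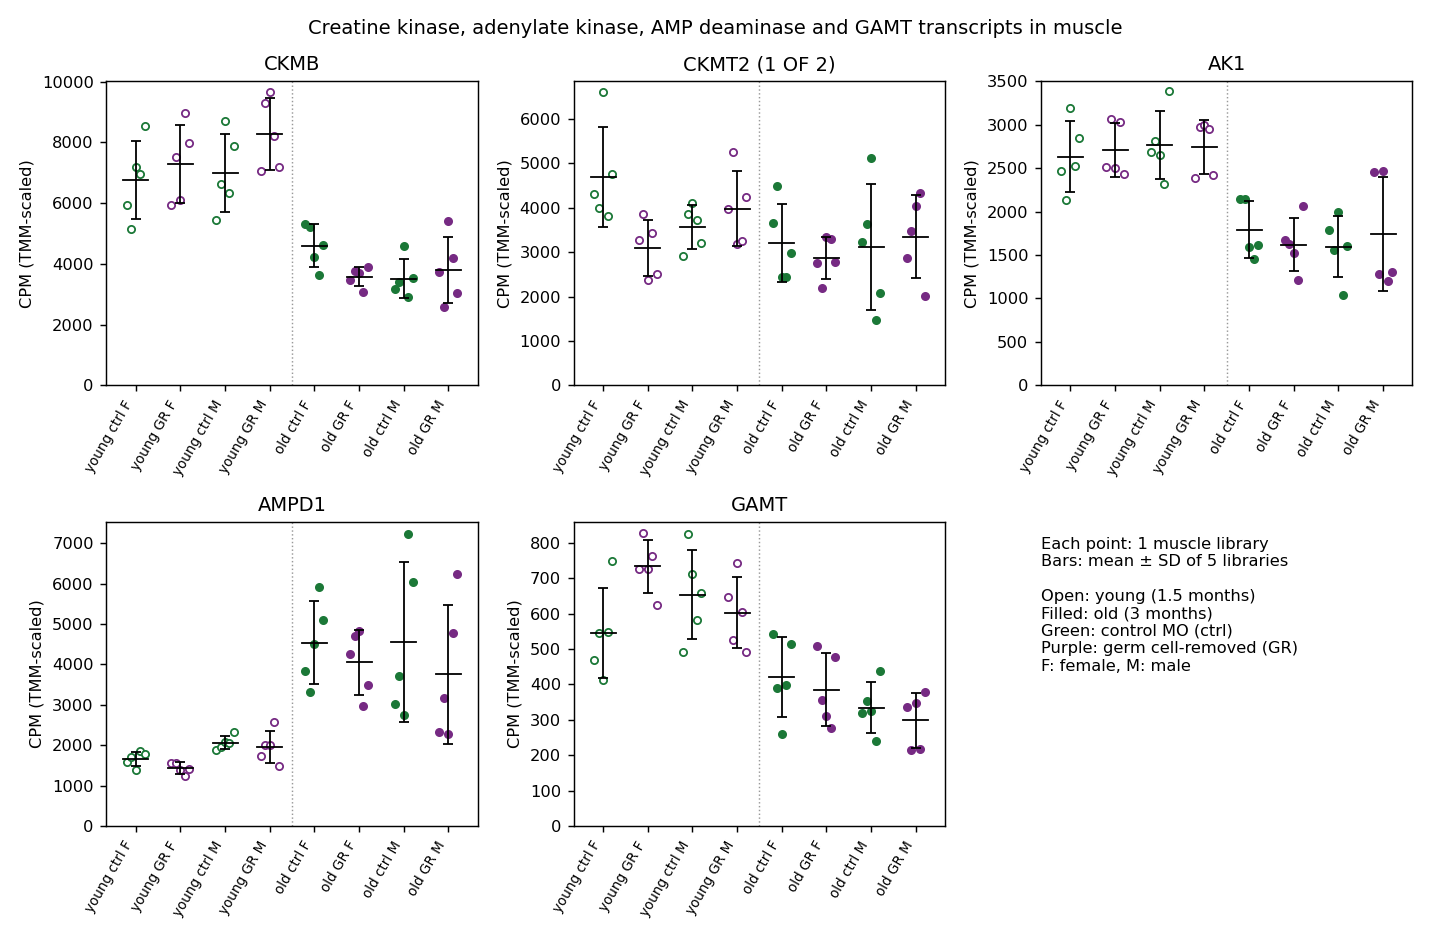
Level of the 5 well-counted members (y axis, CPM on TMM-scaled library sizes, from 0) in each of the 40 muscle libraries by group (x axis, ctrl for control MO, GR for germ cell-removed, F for female, M for male), with bars for the mean ± SD of 5 libraries. AMPD1 is higher in old (filled) than in young (open) groups and CKMB, AK1 and GAMT are lower, with 2275 to 7230 against 1230 to 2562 CPM for AMPD1 and 2589 to 5404 against 5148 to 9666 CPM for CKMB.

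CKMB was the clearest loss with age. Its product is the cytosolic creatine kinase of the contractile apparatus, and its mean fell from 7334 ± 1307 to 3872 ± 813 CPM (SD, n = 20 young and 20 old libraries), to 0.528 of the young level. In control females it stood at 5931, 5148, 7200, 6954 and 8546 CPM in the young libraries and at 5312, 5217, 4228, 3634 and 4611 CPM in the old ones. Here the lowest young library lay below 2 of the old libraries. In germ cell-removed females the young libraries held 5944, 7512, 6092, 8957 and 7990 CPM and the old libraries 3481, 3753, 3698, 3074 and 3903 CPM. For control males the values were 5427, 6617, 8706, 6337 and 7872 CPM against 3160, 3391, 4576, 2895 and 3540 CPM. Germ cell-removed males had 7065, 9303, 9666, 8218 and 7189 CPM when young and 3737, 2589, 5404, 4200 and 3032 CPM when old. In these 3 groups every old library was below every young one. The log2 fold changes (old minus young) were −0.70 in control females (SE 0.17, adjusted p = 0.0213), −1.16 in germ cell-removed females (SE 0.17, adjusted p = 6.23e-08), −1.11 in control males (SE 0.20, adjusted p = 3.17e-05) and −1.23 in germ cell-removed males (SE 0.21, adjusted p = 0.000425), by edgeR's quasi-likelihood test adjusted over all genes tested. Over all groups the change was −0.93 (SE 0.084, adjusted p = 1.84e-14, edgeR).

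AK1, the cytosolic adenylate kinase, was also lower in old muscle, with a mean of 2714 ± 332 CPM in young and 1688 ± 409 CPM in old libraries (SD, n = 20 each). Young control females held 2466, 2130, 3198, 2529 and 2842 CPM and old ones 2150, 2148, 1595, 1451 and 1618 CPM, and the groups overlapped by the lowest young library. In germ cell-removed females AK1 went from 2515, 3063, 2496, 3027 and 2432 CPM to 1674, 1629, 1523, 1218 and 2060 CPM without overlap. The same held for control males, with 2685, 2808, 2648, 2319 and 3386 CPM in young and 1793, 1563, 1990, 1043 and 1600 CPM in old libraries. In germ cell-removed males young libraries had 2389, 2973, 3000, 2948 and 2419 CPM, and the old ones split into a pair at the young level (2461 and 2464 CPM, replicates 1 and 3) and 3 lower libraries (1277, 1201 and 1299 CPM). AK1 was lower by edgeR's test in control females (log2 fold change −0.69, SE 0.17, adjusted p = 0.0199), germ cell-removed females (−0.88, SE 0.18, adjusted p = 0.00013) and control males (−0.90, SE 0.19, adjusted p = 0.000923). In germ cell-removed males the value was −0.73 (SE 0.23, adjusted p = 0.0643, edgeR), which missed the threshold. It passed edgeR's test without old replicate 1 (adjusted p = 0.00585) or 3 (adjusted p = 0.00858). Over all groups AK1 changed by −0.69 (SE 0.089, adjusted p = 5.77e-09, edgeR).

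AMPD1 moved the other way. The muscle AMP deaminase rose from a mean of 1776 ± 339 CPM in young to 4224 ± 1386 CPM in old libraries (SD, n = 20 each), 2.38 times the young level, and 18 of the 20 old libraries were above the highest young one. In control females it was at 1573, 1718, 1389, 1846 and 1770 CPM in young and at 3839, 3320, 4492, 5920 and 5110 CPM in old libraries. Germ cell-removed females had 1561, 1569, 1384, 1230 and 1414 CPM when young and 4254, 4710, 4826, 2963 and 3495 CPM when old. For both kinds of females every old library lay above every young one. The young control males had 1886, 1954, 2083, 2055 and 2317 CPM and the old ones 3026, 3718, 2748, 7230 and 6040 CPM, again without overlap. In germ cell-removed males the young values of 1741, 1996, 2004, 2562 and 1474 CPM overlapped the old values of 2336, 3156, 2275, 4776 and 6241 CPM. The log2 fold change was 1.31 in control females (SE 0.17, adjusted p = 4.34e-05), 1.36 in germ cell-removed females (SE 0.18, adjusted p = 1.20e-09), 1.02 in control males (SE 0.21, adjusted p = 0.000272) and 0.80 in germ cell-removed males (SE 0.22, adjusted p = 0.0325), by edgeR's test. Over all groups AMPD1 rose by 1.26 on the log2 scale (SE 0.10, adjusted p = 4.60e-16, edgeR).

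Old males spread the most in AMPD1. In both old male groups replicates 4 and 5 held the highest levels (7230 and 6040 CPM with control MO, 4776 and 6241 CPM without germ cells), and the other 6 old male libraries ran from 2275 to 3718 CPM. These 4 libraries had 172379 to 216291 counts, against 129270 to 176344 in the other 6. They detected 7190 to 7702 genes, against 5872 to 7359. The 17 genes over 1% of any muscle library took 39.7 to 46.2% of their counts, against 45.0 to 53.5%. Between the old male groups all 5 pairs of libraries with the same number deviated together over all genes (r 0.16 to 0.49). The part of these features in the AMPD1 spread was not tested. The call in germ cell-removed males was lost without young replicate 1, 2 or 5 or old replicate 5 (adjusted p = 0.0614 to 0.101, edgeR), with the newer form of edgeR's quasi-likelihood fit (adjusted p = 0.0566) and with libraries thinned to the smallest total (adjusted p = 0.0524).

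CKMT2 (1 OF 2), the sarcomeric mitochondrial creatine kinase, was called for age in 1 of the 4 comparisons. Its mean was 3834 ± 959 CPM in young and 3132 ± 921 CPM in old muscle (SD, n = 20 each), and the groups overlapped in all 4 comparisons. In control females the young libraries stood at 4302, 4007, 6602, 3822 and 4754 CPM and the old ones at 3655, 4487, 2444, 2436 and 2977 CPM. This was the comparison with the call (log2 fold change −0.68, SE 0.19, adjusted p = 0.0468, edgeR), and it was lost without any of 8 of the 10 libraries (adjusted p = 0.0801 to 0.205) and with the newer form of edgeR's fit (adjusted p = 0.0522). By edgeR's test the values in the other groups were −0.25 (SE 0.17, adjusted p = 0.527) in germ cell-removed females, −0.30 (SE 0.21, adjusted p = 0.517) in control males and −0.36 (SE 0.20, adjusted p = 0.404) in germ cell-removed males, where the libraries ran from 2370 to 3871, 2906 to 4116 and 3181 to 5268 CPM when young and from 2183 to 3352, 1476 to 5120 and 2002 to 4334 CPM when old. Over all groups the change of −0.28 (SE 0.10, adjusted p = 0.0546, edgeR) missed the threshold. Of 50 alternative fits 22 called it lower and 27 left it uncalled. The remaining 1, on plain library sizes, turned it to 0.067 (adjusted p = 0.629). Fits lacking 1 library gave −0.34 to −0.23 (adjusted p = 0.0105 to 0.109, edgeR).

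GAMT, which completes creatine synthesis, was lower in old muscle in 3 of the 4 comparisons. Its mean went from 633 ± 123 to 360 ± 97.5 CPM (SD, n = 20 each), 0.568 of the young level. Control females held 468, 545, 413, 548 and 747 CPM when young and 541, 391, 259.5, 399 and 515 CPM when old, with the groups overlapping widely. In germ cell-removed females the young libraries were at 725, 829, 727, 763 and 623 CPM and the old ones at 507, 355, 310.1, 276 and 477 CPM. Young control males had 491, 825, 713, 583 and 658 CPM and old ones 319, 352, 324, 240.1 and 437 CPM. Germ cell-removed males had 648, 525, 744, 604 and 491 CPM against 335, 214, 348, 218 and 378 CPM. The last 3 comparisons showed no overlap. By edgeR's test the log2 fold changes were −1.07 (SE 0.20, adjusted p = 2.44e-05) in germ cell-removed females, −1.08 (SE 0.21, adjusted p = 0.000149) in control males and −1.11 (SE 0.22, adjusted p = 0.00195) in germ cell-removed males. In control females the value was −0.51 (SE 0.21, adjusted p = 0.217, edgeR), and over all groups −0.82 (SE 0.10, adjusted p = 1.06e-09).

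GATM, the enzyme before GAMT in the pathway, was detected almost only in young muscle. It had 25 counts in 15 of the 20 young libraries, with at most 4 in a library, and 1 count in the 20 old libraries, in replicate 2 of the control females. On plain totals this was 7.42 CPM in young and 0.277 CPM in old muscle, a ratio of 26.7 with an exact 95% interval of 4.38 to 1098. In each of the 4 age comparisons GATM had fewer than 10 counts and was not tested. In the fit of all groups it was lower in old muscle (adjusted p = 1.74e-05, edgeR), with a fitted size that depends on the prior count and is not given. GATM passed the filter of 10 counts in total through the young libraries alone, so this test adds no support beyond the counts. CKB (1 OF 3) had 63 counts in young and 64 in old muscle, a ratio of 1.05 on plain totals (exact 95% interval 0.731 to 1.51), and its adjusted p in the 4 comparisons was 0.344 to 0.834 (edgeR).

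**Figure D2:**
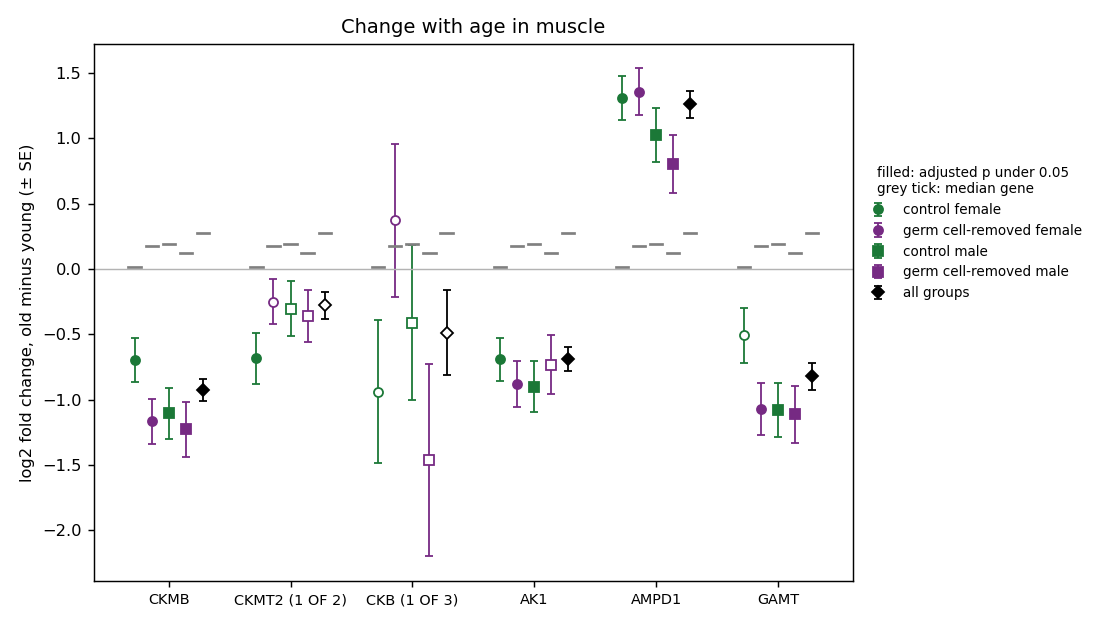
Log2 fold change with age (y axis, old minus young, ± SE) of 6 members (x axis) in the 4 muscle comparisons and over all groups, with filled symbols for an adjusted p under 0.05 and grey ticks for the median gene of the same comparison. AMPD1 lies above the median gene in all comparisons (0.80 to 1.36), CKMB below it (−1.23 to −0.70), and CKMT2 (1 OF 2) is filled in control females only.

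Counted over the members, the test called 1 higher and 3 lower of 6 tested in control females, where 1.57% and 2.51% of the 5611 genes tested were called in these directions (88 and 141 genes, and 262 and 53 on plain library sizes). In germ cell-removed females 1 was higher (3.19% of all genes) and 3 were lower (3.09%). On plain library sizes these were 632 and 83 genes in place of 171 and 166. Control males likewise had 1 higher (2.97%) and 3 lower (2.04%), and germ cell-removed males 1 higher (1.91%) and 2 lower (1.51%). On plain library sizes 778 and 33 genes, in place of 154 and 106, and 477 and 31, in place of 100 and 79, were called. Over all groups 1 was higher (11.5%) and 4 were lower (3.75%) of 7 tested, with 1053 and 342 genes called in all and 2514 and 169 on plain library sizes. The 4 lower members include GATM, which passed the filter on counts through the young libraries alone. Well-counted genes were called more often than these shares. Among the 968 genes with a mean of at least 50 CPM, which include the 5 well-counted members, 31.8% were higher and 20.4% lower over all groups, and in the single comparisons 5.82 to 10.3% were higher and 6.96 to 13.0% lower. Without overlap between the ages, control females had 1 member higher (3.40% of all genes), and germ cell-removed females 1 higher (4.32%) and 3 lower (1.88%). Control males had 1 higher (4.11%) and 3 lower (1.41%), and germ cell-removed males 0 higher (2.07%) and 2 lower (1.59%).

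The size of these changes depended on the scaling, and their direction did not for CKMB, AK1, GAMT and AMPD1. The median gene shifted by 0.012, 0.18, 0.19 and 0.12 on the log2 scale in the 4 comparisons and by 0.28 over all groups. Relative to the median gene, the change over all groups was 0.98 for AMPD1, −1.20 for CKMB, −0.97 for AK1, −1.1 for GAMT and −0.56 for CKMT2 (1 OF 2). On plain library sizes CKMB changed by −0.30 to −0.74 and AK1 by −0.28 to −0.43 in the 4 comparisons, GAMT by −0.13 to −0.62, and AMPD1 by 1.37 to 1.83. On these sizes AK1 was no longer called in control males (−0.39, adjusted p = 0.112, edgeR), and CKMB, AK1 and CKMT2 (1 OF 2) were no longer called in control females (adjusted p = 0.150, 0.159 and 0.242, edgeR). The 3 calls of lower members in control females were the least stable, and that of CKMB was lost without any of 5 libraries (adjusted p = 0.0548 to 0.0942, edgeR) and that of AK1 without any of 6 (adjusted p = 0.0534 to 0.0809).

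A ratio of counts within a library does not depend on scaling. AMPD1 had 0.137 to 0.348 counts for each CKMB count in young muscle (median 0.243) and 0.421 to 2.50 in old muscle (median 1.1), and the 20 young and 20 old libraries did not overlap. The group medians lay between 0.209 and 0.295 in the 4 young groups and between 1.06 and 1.22 in the 4 old groups. The medians of the other well-counted members kept closer to CKMB than that of AMPD1 did. For AK1 the ratio was 0.304 to 0.495 in young and 0.286 to 0.659 in old muscle, and for GAMT it was 0.0564 to 0.125 and 0.052 to 0.146. CKMT2 (1 OF 2) had 0.315 to 0.917 counts for each CKMB count in young (median 0.550) and 0.510 to 1.34 in old muscle (median 0.758). Over all libraries these 3 ratios overlapped between the ages. Within germ cell-removed fish the CKMT2 (1 OF 2) ratio did not overlap. It went from 0.315 to 0.551 in young to 0.582 to 1.07 in old females, and from 0.329 to 0.591 to 0.660 to 1.34 in males. In control females and control males it overlapped. The median of this ratio also rose in control males, from 0.535 to 1.02, beside 0.563 to 0.769 in germ cell-removed males. In females it went from 0.725 to 0.670 with control MO and from 0.389 to 0.793 without germ cells. Whether the change of this ratio with age differs between the treatments was not tested. These ratios were chosen after the values were seen and are given as a description. Among the well-counted members AMPD1 was the one that rose and CKMB the one that fell most over all groups. Their ratio therefore pairs the members that moved furthest apart. The share of all genes whose ratio to CKMB separates the ages was not computed.

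**Figure D3:**
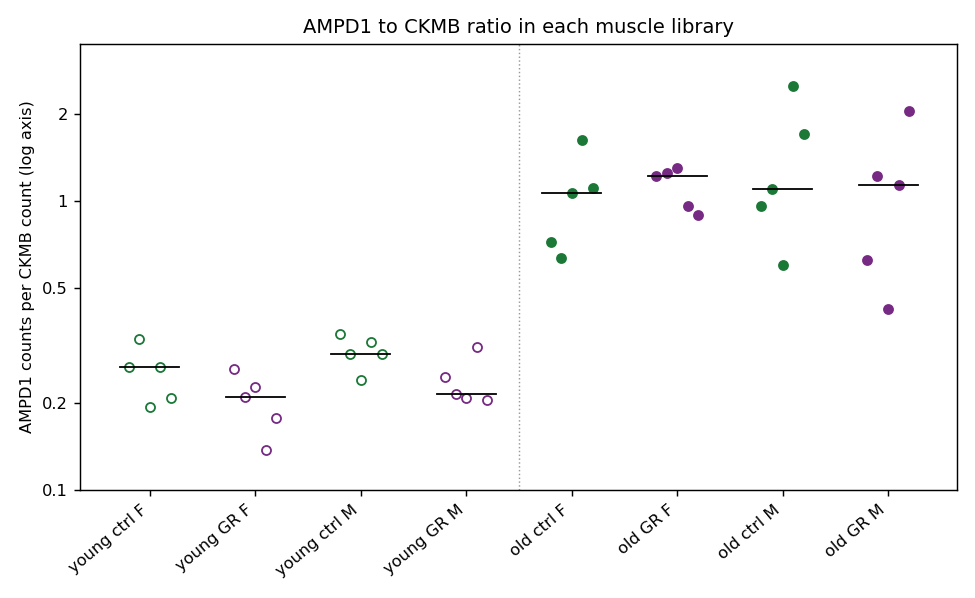
Counts of AMPD1 for each count of CKMB in 1 library (y axis, log scale) by muscle group (x axis, ctrl for control MO, GR for germ cell-removed, F for female, M for male), with a line at the median of 5 libraries. All 20 young libraries (open) are at or below 0.348 and all 20 old libraries (filled) at or above 0.421. The pair was chosen after the values were seen.

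Removal of the germ cells moved no member in muscle past the threshold of the reported fits. Of 7 members tested in young females, 7 in young males, 6 in old females and 6 in old males, 0 were called by edgeR's test, where 0.106%, 0.136%, 0.198% and 0.00% of all genes were called. At an unadjusted p under 0.05 the counts were 2, 1, 1 and 0, and DESeq2's Wald test called 1 member in young females and 0 in the other groups. That member was CKMT2 (1 OF 2), with 4302, 4007, 6602, 3822 and 4754 CPM in young control females and 3273, 3871, 2370, 3437 and 2516 CPM in young germ cell-removed females. Its log2 fold change (germ cell-removed minus control) was −0.55 (SE 0.16, unadjusted p = 0.00288, adjusted p = 0.448, edgeR), with an adjusted p of 0.0273 by DESeq2 and of 0.0251 by edgeR without young control replicate 2. In young males the change was 0.18 (SE 0.12, adjusted p = 0.988, edgeR). The test of the difference between the sexes over both ages gave −0.51 (SE 0.21, unadjusted p = 0.0154, adjusted p = 0.785, edgeR), which failed the correction.

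GAMT in young females was the other member under an unadjusted p of 0.05. Control libraries stood at 468, 545, 413, 548 and 747 CPM and those without germ cells at 725, 829, 727, 763 and 623 CPM, and the groups overlapped by 1 control library. The log2 fold change was 0.48 (SE 0.16, adjusted p = 0.448, edgeR). CKMB had log2 fold changes of 0.27 (SE 0.11, adjusted p = 0.821, edgeR) in young males and −0.36 (SE 0.16, adjusted p = 0.801) in old females. Over all muscle groups 0 of 7 members were called, by edgeR or by DESeq2, and 0 had an unadjusted p under 0.05 (0.0110% of all genes were called). The log2 fold changes there were −0.18 for AMPD1 (SE 0.10), −0.12 for CKMT2 (1 OF 2) (SE 0.10), 0.026 for CKMB (SE 0.083), 0.00076 for AK1 (SE 0.089) and 0.0055 for GAMT (SE 0.10).

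Sex moved none of these genes in muscle past the threshold of the reported fits. In young control, young germ cell-removed, old control and old germ cell-removed muscle 0 members were called by edgeR's test, where 0.322%, 1.07%, 0.254% and 0.0504% of all genes were called, and 2, 3, 0 and 1 members had an unadjusted p under 0.05. DESeq2's Wald test called 1 member in young control muscle and 0 in the other groups. AMPD1 was that member, with all 5 young control females (1389 to 1846 CPM) below all 5 young control males (1886 to 2317 CPM), an absence of overlap in this direction that 1.22% of all genes showed. Its log2 fold change (female minus male) was −0.33 (SE 0.12, unadjusted p = 0.0105, adjusted p = 0.294, edgeR), with an adjusted p of 0.0184 by DESeq2. CKMT2 (1 OF 2), with 3822 to 6602 CPM in young control females and 2906 to 4116 CPM in young control males, differed by 0.38 (SE 0.15, unadjusted p = 0.0176, adjusted p = 0.349, edgeR), and passed the threshold only with the filterByExpr filter on low counts (0.43, adjusted p = 0.0365). In young germ cell-removed fish its value was −0.33 (SE 0.13, adjusted p = 0.398, edgeR). For AMPD1, young germ cell-removed fish gave −0.44 (SE 0.14, adjusted p = 0.113, edgeR), and in old fish the values were −0.032 (SE 0.23) in control and 0.12 (SE 0.23) in germ cell-removed muscle. Over all groups 0 of 7 members were called by either tool, and 0 had an unadjusted p under 0.05 (0.636% of all genes were called).

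Interactions asked whether the changes with age differed between the sexes or treatments. In the fit of all 40 muscle libraries 0 members and 0.00% of all genes were called for sex by age, 0 members and 0.00% for age by germ cell removal, and 0 members and 0.00% for sex by germ cell removal, and DESeq2 called 0 members in each, with 1, 0 and 1 members at an unadjusted p under 0.05 by edgeR. AMPD1 rose more in females than in males by 0.43 on the log2 scale (SE 0.21, unadjusted p = 0.0399, adjusted p = 0.750, edgeR), a difference that failed the correction. For age by germ cell removal the values were −0.30 for CKMB (SE 0.17) and −0.30 for GAMT (SE 0.20), each with an adjusted p of 0.924.

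The genes around the members were taken from 4 lists. In the list of creatine transport and methyl supply 8 of 15 lines were tested over all groups for age, with 1 higher and 2 lower, where 11.5% and 3.75% of all genes (31.8% and 20.4% of those with at least 50 CPM) were called in these directions. AHCY, which clears the S-adenosylhomocysteine that GAMT leaves, was lower (91.7 CPM in young and 47.8 CPM in old muscle, log2 fold change −0.89, SE 0.17, adjusted p = 6.32e-05, edgeR). MAT2AB, a methionine adenosyltransferase that makes the methyl donor, was lower (−0.54, SE 0.15, adjusted p = 0.00912, edgeR), and its paralog MAT2AA, at 4.98 and 12.2 CPM, was higher (1.20, SE 0.43, adjusted p = 0.0445). The creatine transporter SLC6A8 was at 2.92 and 3.97 CPM and was not called (adjusted p = 0.835, edgeR). The list's median of −0.030 lay below the median gene of 0.28. OAT, the ornithine aminotransferase, was the 1 gene of the list called for sex over all groups, and was higher in females (log2 fold change 1.14, SE 0.23, adjusted p = 0.00154, edgeR).

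In the purine nucleotide cycle and AMP breakdown list 9 of 16 lines were tested, with 1 higher and 1 lower. Beside them stand the same 11.5% and 3.75% of all genes, and 31.8% and 20.4% of those with at least 50 CPM. ADSSL1, the muscle adenylosuccinate synthetase that acts on the IMP made by AMPD1, rose from 784 to 1316 CPM over all groups (log2 fold change 0.75, SE 0.099, adjusted p = 8.00e-09, edgeR). It was called in 1 of the 4 age comparisons, that of germ cell-removed females (0.93, SE 0.19, adjusted p = 0.000167, edgeR). ADSL, which completes the cycle back to AMP, was at 127 and 103 CPM and was not called (−0.29, SE 0.13, adjusted p = 0.114, edgeR). HPRT1, which salvages hypoxanthine, was lower (−0.54, SE 0.19, adjusted p = 0.0451, edgeR). The list's median was 0.22.

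Among 9 tested lines for AMP-activated kinase and energy sensing, PRKAG2, a regulatory subunit that binds AMP, was lower (40.8 and 14.4 CPM, −1.33, SE 0.29, adjusted p = 0.000505, edgeR). For the export of ATP from mitochondria 6 of 7 lines were tested, and the channel VDAC1 was lower (−0.51, SE 0.12, adjusted p = 0.00146) and VDAC3 higher (0.39, SE 0.094, adjusted p = 0.00129, edgeR). The medians of these lists were −0.027 and −0.16, beside 0.28 for all genes. Of all genes 11.5% and 3.75% were called higher and lower, and 31.8% and 20.4% of those with at least 50 CPM.

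**Figure D4:**
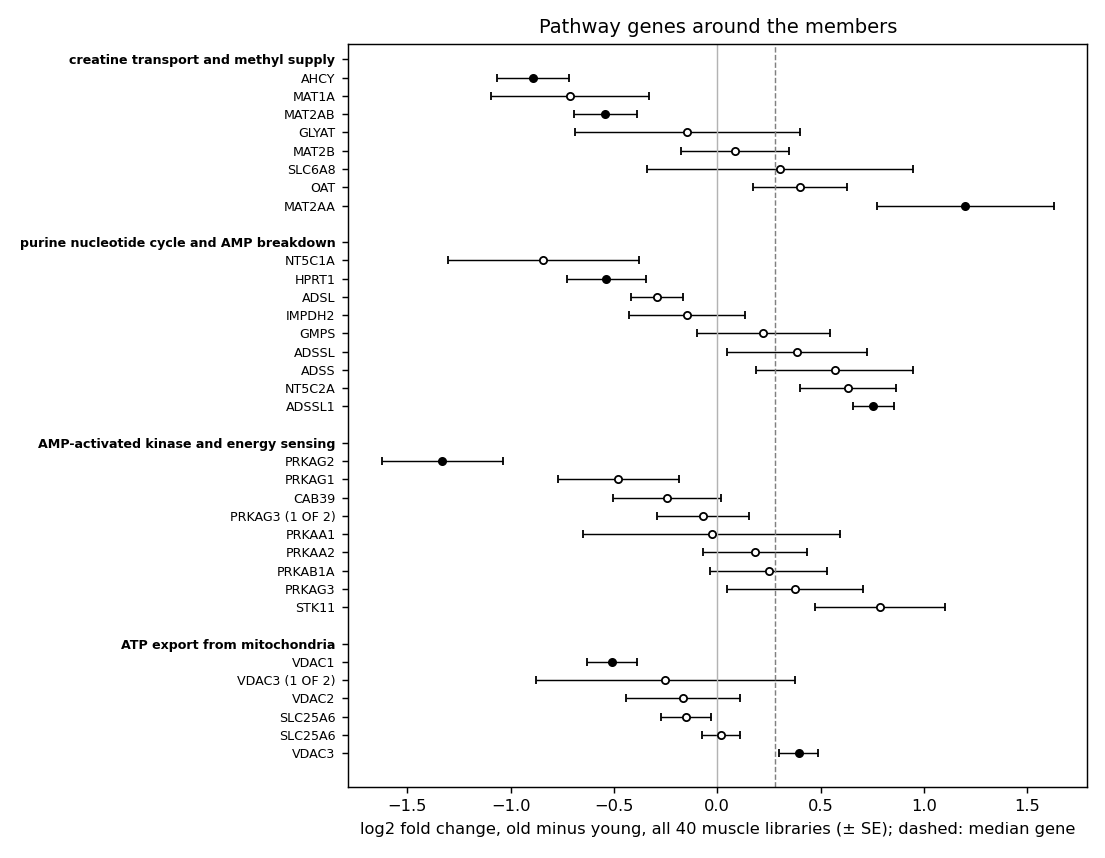
Log2 fold change with age over all 40 muscle libraries (x axis, old minus young, ± SE) of the tested genes of the 4 lists (y axis), with filled points for an adjusted p under 0.05 and a dashed line at the median gene (0.28). ADSSL1 (0.75) and MAT2AA (1.20) lie furthest to the right of the filled points and PRKAG2 (−1.33) and AHCY (−0.89) furthest to the left.

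Each well-counted member was compared with the 963 other genes of at least 50 CPM by Pearson correlation of log2(CPM + 10) over the 40 muscle libraries. These libraries share a pool and fall into 2 ages, so r within groups, over deviations from the group means, is given beside the first value as a description. AMPD1 was most like ANKRD1A (0.91, within groups 0.63), ACSF2 (2 OF 2) (0.90, within groups 0.58) and the fast calcium pump ATP2A1L (0.89, within groups 0.72). For CKMT2 (1 OF 2) the closest were ATP5O (0.80, within groups 0.77), the muscle enolase ENO3 (0.79, within groups 0.75) and ATP5G3B (0.78, within groups 0.83), of which ATP5O and ATP5G3B are subunits of the ATP synthase. AK1 was closest to the fast troponin TNNI2 (5 OF 5) (0.95, within groups 0.90) and to the line named TAF13 (0.94, within groups 0.88). That line had a mean of 19096 CPM, above the 5603 CPM of CKMB, and whether its name fits the transcript counted there was not tested. CKMB shared TAF13 (0.93, within groups 0.66), and its list also held the sarcomeric actin ACTC1B (0.93, within groups 0.81). GAMT was closest to PVALB4 (0.88, within groups 0.71) and the fast troponin TNNT3A (0.88, within groups 0.69). The unnamed line Nfu_g_1_008148 was among the 3 closest for CKMB, AK1 and GAMT (0.95, 0.94 and 0.88, within groups 0.76, 0.84 and 0.68). Between members, r within groups was 0.66 for AK1 with CKMB, 0.46 for CKMT2 (1 OF 2) with CKMB and 0.41 for CKMT2 (1 OF 2) with AK1. GAMT gave 0.46 with AK1, 0.36 with CKMB, 0.044 with AMPD1 and −0.031 with CKMT2 (1 OF 2). For AMPD1 it was −0.56 with AK1, −0.63 with CKMT2 (1 OF 2) and −0.26 with CKMB, where r over all libraries was −0.76.

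In the liver GAMT was higher in germ cell-removed than in control females at both ages. Young control livers held 191, 357, 177, 309 and 308 CPM and young germ cell-removed livers 599.6, 479, 647, 568 and 487 CPM. Old control livers were at 49.8, 77.0, 102, 183 and 73.9 CPM, from 3 to 22 counts, and old germ cell-removed livers at 321, 217, 219, 228 and 277 CPM, from 54 to 60 counts. At neither age did the groups overlap (an absence of overlap that 7.09% of all genes in young and 10.5% in old livers showed in this direction). The log2 fold change was 1.09 in young (SE 0.21, adjusted p = 8.18e-05) and 1.12 in old females (SE 0.33, adjusted p = 0.0127), by edgeR's test, and 7.95% and 7.08% of all genes were called higher. The median gene was itself shifted by 0.44 at both ages, and relative to it GAMT was higher by 0.65 and 0.68. With filterByExpr the change was 0.61 in young and 0.77 in old females. In old females the call rested on single libraries, since leaving out replicate 1 of either treatment or replicate 5 of the controls ended it (adjusted p = 0.0557 to 0.0792, edgeR), as did DESeq2 (adjusted p = 0.0545) and thinning to the smallest total (adjusted p = 0.247). Other features of these libraries moved with the treatment. Hepatocyte markers summed to between 14469 and 31377 CPM in the control livers, and those without germ cells held 71559 to 103529 CPM. These markers include the fibrinogen genes FGA, FGB and FGG, which the study reports as raised in female livers without germ cells. Their sum is therefore not a measure of hepatocyte content apart from the treatment. Exocrine pancreas markers summed to 4448 to 22479 and 5653 to 58513 CPM. The 17 genes most abundant in muscle took 12.4 to 19.2% and 1.02 to 3.03% of the counts, and the depths differed as given above. The library sheet marks the reads of every germ cell-removed liver as sampled down and those of no control liver. Treatment and this step cannot be told apart in the liver comparisons of treatment. The part of these features in the GAMT difference was not tested.

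With age GAMT was lower in the liver too. The control livers went from 177 to 357 CPM in young to 49.8 to 183 CPM in old females, with 1 old library inside the young range, and the log2 fold change was −1.14 (SE 0.33, adjusted p = 0.0288, edgeR, where 1.06% of all genes were called lower). In germ cell-removed livers every old library (217 to 321 CPM) was below every young one (479 to 647 CPM), which 1.96% of all genes showed, with a change of −1.17 (SE 0.18, adjusted p = 0.000146, edgeR, 1.75% called lower). The call in control livers was lost without young replicate 2 or old replicate 1 or 5 (adjusted p = 0.0556 to 0.0955, edgeR). The difference between these changes was 0.23 (SE 0.40, adjusted p = 0.949, edgeR, 0.109% of all genes called). These comparisons share groups and are not independent of each other.

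**Figure D5:**
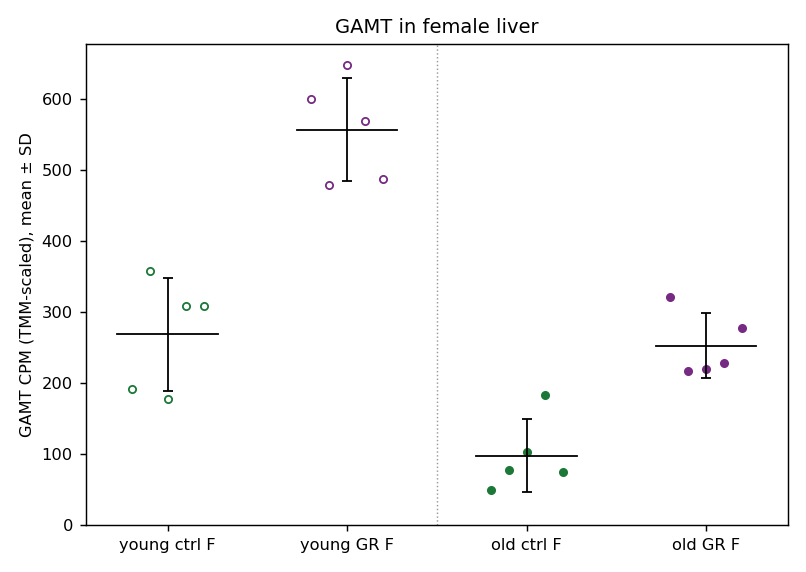
Level of GAMT (y axis, CPM on TMM-scaled library sizes, from 0) in each of the 20 female liver libraries by group (x axis, ctrl for control MO, GR for germ cell-removed, F for female), with bars for the mean ± SD of 5 libraries. Germ cell-removed livers lie above control livers of the same age, 479 to 647 against 177 to 357 CPM in young and 217 to 321 against 49.8 to 183 CPM in old females.

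GATM was close to absent from the counts of the female livers. It had 2 counts, both in replicate 1 of the young germ cell-removed females, and 0 in the other 19 libraries. The 10 control livers together had 0 of 874321 counts, and the 10 germ cell-removed livers 2 of 2096390. GAMT in female muscle had 260 to 829 CPM, and the liver values ran from 49.8 to 647 CPM. Tissue and sequencing pool cannot be told apart in these levels. In the list of creatine transport and methyl supply, AHCY was higher in young germ cell-removed livers (log2 fold change 0.63, SE 0.19, adjusted p = 0.0229, edgeR) and MAT2AB lower (−1.82, SE 0.60, adjusted p = 0.0378). Relative to the median gene these changes were 0.19 and −2.26, and 434 and 92 of 5459 genes were called higher and lower. AHCY and MAT2AB went the same way in old livers and were not called (0.68, SE 0.28, adjusted p = 0.121 and −1.16, SE 0.50, adjusted p = 0.143, edgeR). In old livers MAT1A, the methionine adenosyltransferase typical of liver, was higher (0.77, SE 0.26, adjusted p = 0.0422, edgeR), as was OAT (0.95, SE 0.33, adjusted p = 0.0433). Relative to the median gene MAT1A and OAT were higher by 0.33 and 0.50, and 7.08% of all genes were called higher. Their changes in young livers were not called (0.28, SE 0.21, adjusted p = 0.481 and 0.33, SE 0.28, adjusted p = 0.547, edgeR). With age AHCY was lower in germ cell-removed livers (−0.70, SE 0.17, adjusted p = 0.0132, edgeR), where 1.75% of all genes were called lower. Control livers gave a change of the same size that was not called (−0.70, SE 0.26, adjusted p = 0.176, edgeR). The difference between these age changes was 0.26 (SE 0.35, adjusted p = 0.918, edgeR).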

How the data were processed

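UMI counts per gene were deposited in 1 table. Per the labels and the study's methods, the authors demultiplexed the reads, sampled them to a fixed number in muscle and female liver, trimmed them with Trim Galore 0.6.7, mapped them with HISAT2 2.2.1, assigned them with featureCounts 2.0.1 and removed duplicates with UMI-tools. The deposited library sheet marks 4 muscle and 10 female liver libraries as not sampled down. The 10 liver libraries are all the control livers, and the 4 muscle libraries are all young. All libraries of a tissue were amplified together, and treatment, age, sex and replicate come from the column names. Of 20406 lines, 1877 carried no identifier and were left out, as were 20 columns of male liver, which fill more lines than the annotation.

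Each comparison was fitted with edgeR 4.0.16 (R 4.3.3, TMM, quasi-likelihood test) on its own 10 libraries, or on all 40 muscle or 20 liver libraries for overall changes and interactions, for genes with at least 10 counts in total. Adjusted p-values (Benjamini-Hochberg, threshold 0.05) run over all genes tested, and the SE is the log2 fold change divided by the root of F. Printed CPM use TMM factors over the 40 muscle or 20 liver libraries, and fold changes those of their own fit. edgeR's default in this version is its older (legacy) form, so the planned legacy alternative was identical to the reported fit and was not counted; the newer form was added after seeing the data. DESeq2 1.42.0 was another alternative. Scripts were tested on simulated data.

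The members and lists were chosen with earlier results of these data known. Members were all named. The list of other nucleotide kinases is not reported here. List genes were named where called in at least 1 comparison, and SLC6A8 and ADSL were named after their values were seen. For each member of at least 50 CPM the 3 most correlated genes were named. List symbols were matched with paralog letters, which were narrowed after the matches were seen. In 1 of 16 comparisons, germ cell removal in old male muscle, all 5 pairs of libraries with the same number deviated together (r 0.16 to 0.49), and 0 members were called there with the replicate number as a block, as without it.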

Additional observations from a re-analysis of the deposited data

How the results depend on the processing

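The 28 calls of members had 714 alternatives in all, of which 643 kept the call, 71 lost it and 0 turned its direction. Of these alternatives 430 only left out 1 library, and 386 of them kept the call and 44 lost it. The 28 calls include GATM for age over all groups, with 48 alternatives that all kept it, and CKMT1 for age in control livers. These 2 genes passed the filter through 1 age, so their alternatives add no support beyond the counts. AMPD1, CKMB, AK1 and GAMT kept their direction with age in muscle under every alternative run. The count of members called moved as follows. Age in control female muscle had 4 members called, 1 on plain library sizes, 1 with scaling without genes over 1% of a library, 1 with every gene of at least 1 count, 2 with all groups in one fit, and 1 to 4 with each library left out in turn. Germ cell removal in young female muscle went from 0 to 1 with DESeq2 or with every gene of at least 1 count, and was 0 to 1 with libraries left out. Sex in young control muscle went from 0 to 1 with DESeq2 (AMPD1, adjusted p = 0.0184) or, for another member, with filterByExpr (CKMT2 (1 OF 2), adjusted p = 0.0365). GAMT in old female liver lost its 1 call for germ cell removal (0) with RLE factors, DESeq2 or thinned libraries, and in control liver that for age (0) on plain library sizes, with every gene of at least 1 count, or with the replicate block (−1.15, adjusted p = 0.0560, edgeR), and both were 0 to 1 with libraries left out.

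With the replicate number as a block, the call of AMPD1 for sex in young germ cell-removed muscle was gained (1 member, adjusted p = 0.0497, edgeR), as were those of AK1 for age in germ cell-removed males (adjusted p = 0.00465) and of CKMT2 (1 OF 2) for age over all groups (adjusted p = 0.0277). Numbers pair the libraries in 1 comparison only, and in these comparisons the libraries share only a number. CKMT2 (1 OF 2) over all groups was called lower in 22 of its 50 alternatives, and turned to 0.067 on plain library sizes. The difference of GAMT between the age changes of the livers, not called in any setting, was −0.083 on plain library sizes, −0.014 with DESeq2, and −0.062 to 0.76 with libraries left out. The cause of these moves was not tested. The newer form of edgeR's fit, chosen after seeing the data, kept 26 of the 28 calls and lost those of AMPD1 for age in germ cell-removed males (adjusted p = 0.0566) and CKMT2 (1 OF 2) for age in control females (adjusted p = 0.0522). DESeq2 gave no adjusted p for 2 of the calls. Leaving out the 4 muscle libraries not sampled down, an alternative chosen after seeing the data, kept all 13 calls it touched. Over all genes, called counts moved by over 1.5 times in most comparisons, in muscle for age over all groups from 1395 to between 721 (thinned libraries) and 2683 (plain library sizes), and in liver for germ cell removal from 526 to as few as 252 in young and from 505 to as few as 223 in old females (thinned libraries). Depth limits GATM, CKMT1 and CKB (1 OF 3) in muscle and GAMT in old control livers, where 3 to 22 counts stand behind each value.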

Other observations

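CKB (1 OF 3) and CKMT1 in the liver lay outside the comparisons above and were singled out after their values were seen. CKB (1 OF 3) was lower in germ cell-removed than in control livers of young females (log2 fold change −1.01, SE 0.27, adjusted p = 0.00530, edgeR), with control livers at 229 to 274 CPM and the others at 60.4 to 170 CPM. Of all 5459 genes tested there, 92 were called lower. In old females the change was −1.32 (SE 0.36, adjusted p = 0.00612, edgeR, where 110 of 5576 genes were called lower), and the call was lost without 1 of the 10 libraries (adjusted p = 0.0684). There the groups overlapped, with control livers at 49.8 to 184 CPM on 3 to 21 counts and germ cell-removed livers at 41.1 to 91.0 CPM. With age CKB (1 OF 3) was lower in germ cell-removed livers (log2 fold change −1.03, SE 0.29, adjusted p = 0.0463, edgeR, 1.75% of all genes called lower), with 60.4 to 170 CPM in young and 41.1 to 91.0 CPM in old females. The call was lost without any of 8 of the 10 libraries (adjusted p = 0.0551 to 0.139, edgeR), on plain library sizes (adjusted p = 0.0799) and with thinned libraries (adjusted p = 0.143). CKMT1 was higher in old than in young control livers (log2 fold change 2.20, SE 0.62, adjusted p = 0.0242, edgeR) on 0 to 3 counts in young and 1 to 7 counts in old libraries, and leaving out any of 6 of the 10 libraries ended the call (adjusted p = 0.0611 to 0.210). CKMT1 passed the filter of 10 counts in total through the old libraries (24 counts, against 7 in the young ones). In this comparison 30 of 3385 genes were called higher.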
